A study of Mus musculus and Acomys cahirinus with 25 samples.

Results

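The tissue kallikreins of the epidermis and their inhibitor were followed as 9 genes, the 8 kallikreins Klk5, Klk6, Klk7, Klk8, Klk10, Klk11, Klk13 and Klk14 and the inhibitor gene Spink5, among the 24500 genes counted in each of 25 RNA-seq libraries of dorsal skin, wounded except for 3 libraries of post-wound day (PWD) 0. The members were taken by gene symbol, and each of the 25 count tables listed all 9. The laboratory mice were C57BL/6J animals or K14-Cre-Twist1 mice and their wild-type Twist1+/+ controls, 4 weeks old at wounding, and all 13 of their libraries came from PWD14 of a full-thickness wound. They were 2 of wild-type wound center and 2 of wild-type wound margin epidermis, 5 of wild-type wound center dermis, 2 of wild-type wound margin dermis and 2 of K14-Cre-Twist1 wound center dermis. In the K14-Cre-Twist1 mice the keratinocyte promoter of keratin 14 drives Cre, so Twist1 is deleted in keratinocytes and not in the dermal cells that were sequenced. The other 12 libraries came from wild-type spiny mice (Acomys cahirinus), 8 weeks old at wounding, whose wounds regrow hair across the wound bed. They held whole-wound epidermis at PWD0 (1 library), 14 (2), 21 (2) and 28 (1) and dermis at PWD0 (2), 14 (1), 21 (2) and 28 (1). These are the days of the labels, and a sample list printed with the study gives slightly different days for the wounded spiny mouse libraries. Mice of both sexes were used. Epidermis and dermis were separated manually in the laboratory mouse and after trypsin-EDTA in the cold in the spiny mouse. The study describes its bulk RNA-seq replicates as independent experiments, and the labels name no animals, so p-values measure the spread between these libraries.

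Kallikreins are secreted serine proteases that are made as inactive precursors, mostly in the granular layer, and that activate each other in the extracellular space. In the cornified layer they cleave the corneodesmosomes that hold dead keratinocytes together, so that scales are shed. Spink5 encodes LEKTI, a chain of Kazal-type inhibitor domains released in the upper epidermis, and its loss leaves kallikreins unchecked and the skin barrier leaky in Netherton syndrome. Several kallikreins also cleave growth factor precursors, matrix proteins and protease-activated receptors.

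The libraries held 19413261 to 86532134 reads on genes in the laboratory mouse and 5669760 to 34751956 in the spiny mouse, and 3 counts, the smallest amount taken as detectable, equalled between 0.0347 and 0.529 CPM, the count of a gene scaled to the library's total of reads on genes. Intervals and floors cover counting error only. Spiny mouse reads were aligned to the laboratory mouse genome, so levels are compared between libraries of a species and not between the species. Libraries of a group differed by more than counting noise, with a chi-square per degree of freedom between 28.3 and 375 over genes. The second K14-Cre-Twist1 dermis library stood apart, with 10396 CPM of Krt1 and 12500 CPM of Krt10, keratins of differentiating keratinocytes, against 162 and 164 CPM in the other K14-Cre-Twist1 library. At PWD0, 1 of the 2 spiny mouse dermis libraries held 14042 CPM of hair follicle and hair shaft genes in all, and the other 107 CPM.

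The 8 kallikreins lie head to tail on the plus strand of a 170 kb stretch of mouse chromosome 7, chr7:43680880-43851181 on GRCm38, in the order Klk14, Klk13, Klk11, Klk10, Klk8, Klk7, Klk6 and Klk5, with Klk12 between Klk13 and Klk11 and Klk9 between Klk10 and Klk8. Spink5 lies on another chromosome. The RefSeq sequences just upstream of Klk13, Klk10 and Klk14 are shown because these 3 genes rose together in wound center epidermis. Each is the 250 bases before a RefSeq transcription start, 5′ to 3′ on the plus strand of GRCm38.p6, and the start used for Klk14 lies inside the longer gene model given above.
Klk13, chr7:43712317-43712566: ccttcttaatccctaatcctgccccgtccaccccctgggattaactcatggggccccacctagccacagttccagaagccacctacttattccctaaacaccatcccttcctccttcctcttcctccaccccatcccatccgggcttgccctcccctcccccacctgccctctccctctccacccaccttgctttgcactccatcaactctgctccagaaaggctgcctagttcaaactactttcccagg
Klk10, chr7:43780804-43781053: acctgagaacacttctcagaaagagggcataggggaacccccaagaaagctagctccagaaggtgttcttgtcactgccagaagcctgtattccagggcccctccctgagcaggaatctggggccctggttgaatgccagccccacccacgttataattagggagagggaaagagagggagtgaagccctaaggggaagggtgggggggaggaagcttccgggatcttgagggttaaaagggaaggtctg
Klk14, chr7:43690168-43690417: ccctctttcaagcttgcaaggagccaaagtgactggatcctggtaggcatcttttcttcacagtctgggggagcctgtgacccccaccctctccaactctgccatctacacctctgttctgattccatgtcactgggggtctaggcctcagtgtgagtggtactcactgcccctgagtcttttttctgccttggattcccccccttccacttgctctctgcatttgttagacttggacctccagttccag
Windows from 250 bases before to 50 after each start were searched on both strands for TGANTCA, the AP-1 type of site, AACCNGTT, a Grainyhead type of site, and TATAAA. None of the 10 windows of the 8 kallikreins held any of these letters, so no base above is in capitals. TGANTCA was found in 7.81%, AACCNGTT in 2.09% and TATAAA in 13.6% of all 32851 mouse windows.

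In laboratory mouse epidermis, the comparison asked which members differ between the wound center, where new follicles form, and the wound margin, where they do not. Klk10, Klk13 and Klk14 rose in the wound center, Klk5, Klk6 and Klk8 were at higher levels there in both libraries without passing the test, and Klk7, Klk11 and Spink5 overlapped between the regions. With edgeR's quasi-likelihood test, 3 of 9 members had an FDR under 0.05 and were higher in the center, where 0.882% of the 14165 tested genes were higher and 1.24% were called in either direction. The median log2 fold change was 1.04 over the members and -0.015 over all tested genes.

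Klk14, a trypsin-like protease that can activate other kallikreins, was measured at 92.4 and 134 CPM in the center and at 4.11 and 2.23 CPM at the margin. Both center values were far above both margin values, and the log2 fold change was 5.15 ± 0.43 (SE, n = 2 and 2 libraries, FDR = 0.0367). Klk10, a family member with little known protease activity, had 238 and 365 CPM in the center and 23.4 and 37.7 CPM at the margin, a log2 fold change of 3.21 ± 0.34 (FDR = 0.0367). Klk13, a trypsin-like protease, had 243 and 274 CPM in the center and 52.7 and 55.4 CPM at the margin, a log2 fold change of 2.15 ± 0.21 (FDR = 0.0367). Both center libraries lay above both margin libraries for 6 of the 9 members, these 3 and Klk5, Klk6 and Klk8, and for 35.8% of all tested genes.

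Klk6, a trypsin-like protease that also cleaves matrix proteins, had 434 and 633 CPM in the center and 114 and 172 CPM at the margin, a log2 difference of 1.81 ± 0.30 that missed the threshold (FDR = 0.0616). Klk8, also called neuropsin and known from both skin and brain, had 612 and 600 CPM in the center and 208 and 344 CPM at the margin (log2 difference 1.04 ± 0.27, FDR = 0.120). Klk5, the trypsin-like protease that starts the activation cascade, had 748 and 726 CPM in the center and 506 and 633 CPM at the margin, a log2 difference of 0.27 ± 0.22 (FDR = 0.482).

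Klk7, the chymotrypsin-like protease that cleaves corneodesmosin, had 3078 and 3449 CPM in the center and 6425 and 2890 CPM at the margin, so the center libraries lay between the margin libraries (log2 difference -0.64 ± 0.48, FDR = 0.450). Klk11, a trypsin-like protease, had 190 and 185 CPM in the center, inside the margin values of 146 and 244 CPM (FDR = 0.757). Spink5 had 1743 and 1901 CPM in the center and 1984 and 1846 CPM at the margin (FDR = 0.706), and these ranges overlapped. The ratio of Spink5 counts to the summed counts of the 8 kallikreins was 0.309 and 0.299 in the center and 0.265 and 0.422 at the margin.

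**Figure D1:**
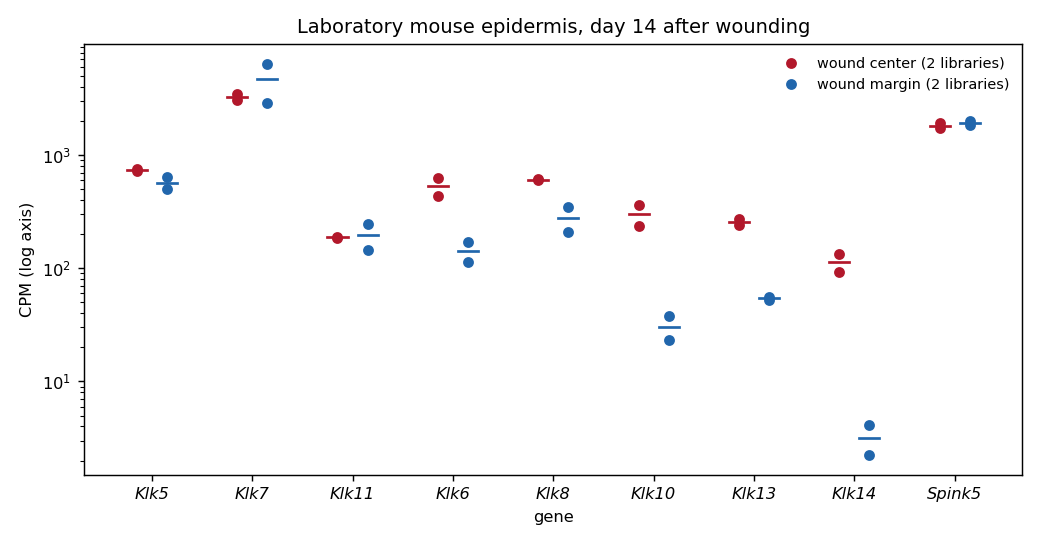
CPM (log axis) of the 8 kallikreins and Spink5 in the 2 wound center (red) and 2 wound margin (blue) epidermis libraries of the laboratory mouse at PWD14, points are libraries and bars group means. Klk14 lies at 92.4 and 134 CPM in the center against 4.11 and 2.23 CPM at the margin, while Klk7, Klk11 and Spink5 overlap between the regions.

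These calls depended on the test and on single libraries. Under the quasi-likelihood estimate of edgeR 3, an alternative chosen after seeing the data, none of the 9 members was called (FDR = 0.0687 for Klk10, Klk13 and Klk14) and neither was any other gene, with 2893 genes at an unadjusted p under 0.05. DESeq2 called 5 members, with Klk6 (adjusted p = 2.18e-06) and Klk8 (adjusted p = 0.00766) added, and the fit of all laboratory mouse libraries together called 1, Klk14. Leaving out center replicate 2 gave Klk13 a log2 fold change of 2.05. Without margin replicate 1, Klk6 was at 1.60, Klk8 at 0.78 and Klk11 at -0.41. Without margin replicate 2, Klk5 was at 0.39, Klk6 at 2.08, Klk8 at 1.39, Klk7 at -1.13 and Spink5 at -0.27. Which members passed changed with the library left out. Those that passed without a margin library were not all higher in the center. In these fits the lone library was assumed to vary like the other group.

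Markers of other cells moved with the regions. The 15 dermal fibroblast markers summed to between 5641 and 6835 CPM in the center libraries and between 927 and 2523 CPM at the margin, with none at 0, and their part in the result was not tested. In wild-type wound center dermis itself none of Klk10, Klk13 and Klk14 exceeded 11.4 CPM. The 4 wound keratins (Krt6a, Krt6b, Krt16 and Krt17) summed to between 12053 and 17489 CPM in the center and between 5247 and 9235 CPM at the margin, and the 14 granular and spinous layer markers to between 167671 and 178865 CPM and between 158670 and 214904 CPM.

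Of the other genes of the kallikrein locus, 5 of 18 passed the filter on low counts and Klk12 rose, from a mean of 1.33 CPM at the margin to 18.6 CPM in the center (log2 fold change 3.53 ± 0.46, FDR = 0.0394). Klk9 was abundant in both, at mean levels of 826 CPM in the center and 458 CPM at the margin (FDR = 0.210). Along the chromosome, genes that passed the test (Klk14, Klk13, Klk12, Klk10) thus stood beside genes that did not (Klk11, Klk9). Among 23 other epidermal proteases 1 was higher, Plat, the tissue plasminogen activator (14.4 against 2.16 CPM, log2 fold change 2.67, FDR = 0.0421). Among 23 tested inhibitors other than Spink5, 2 were higher, the secreted elastase inhibitor Slpi (74.4 against 0.173 CPM, FDR = 0.0367) and Serpine2 (17.1 against 0.956 CPM, FDR = 0.0367). In dermis of the wound margin Plat stood at 226 CPM and Serpine2 at 318 CPM.

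Of 20 tested genes of corneodesmosomes and the cornified layer, 1 passed, the filaggrin relative Flg2, which was lower in the center (270 against 1595 CPM, log2 fold change -2.67, FDR = 0.0367). The median over these 20 genes was 0.07. Among 13 transcription factors of keratinocyte differentiation, Junb, a subunit of AP-1 (log2 fold change 2.09, FDR = 0.0367), and Ppard, a nuclear receptor (1.58, FDR = 0.0421), rose in the center.

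Compared per kilobase of exon, with GENCODE gene models of GRCm38 and not the RefSeq models the counts were made on, Klk7 had the highest level of the members in both regions. It had 1624 and 1820 CPM per kb in the center and 3391 and 1525 CPM per kb at the margin. In the center Klk5 followed with 560 and 544 CPM per kb, and then Klk8 (397 and 390), Spink5 (364 and 397) and Klk6 (287 and 418), which overlapped. Klk10 (173 and 266), Klk11 (129 and 126), Klk13 (106 and 119) and Klk14 (72.7 and 105 CPM per kb) were the lowest 4. At the margin Klk5 (379 and 474) and Spink5 (415 and 386) overlapped, Klk8, Klk11 and Klk6 lay between 75.4 and 224 CPM per kb, and Klk13, Klk10 and Klk14 were at or below 27.4 CPM per kb.

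In spiny mouse epidermis the question was how the members move from intact skin (PWD0) through the wound epidermis of PWD14 and PWD21 to PWD28. Klk6 and Klk13 moved most, being low in intact skin, highest at PWD14, lower at PWD21 and lower still at PWD28. Against PWD0, 8 of 9 members rose at PWD14, where 22.7% of 14336 tested genes were higher, and 6 rose at PWD21, where 13.4% were. From PWD14 to PWD28, 7 of 9 fell, where 20.6% of genes were lower. These 3 comparisons share libraries, and PWD0 and PWD28 were 1 library each, whose spread was taken from the other days.

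Klk6 had 30.1 CPM at PWD0, 5605 and 4989 CPM at PWD14, 1711 and 1479 CPM at PWD21 and 119 CPM at PWD28. Both PWD14 libraries were above all others, and the log2 fold change was 8.18 ± 0.34 from PWD0 to PWD14 (FDR = 1.85e-06) and -6.31 ± 0.30 from PWD14 to PWD28 (FDR = 4.18e-07). Klk13 had 11.3 CPM at PWD0, 694 and 441 CPM at PWD14, 238 and 188 CPM at PWD21 and 21.7 CPM at PWD28. It followed the same order of days as Klk6, with a log2 fold change of 6.37 ± 0.43 from PWD0 to PWD14 (FDR = 5.33e-06).

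Klk8 had 86.7 CPM at PWD0, 418 and 458 CPM at PWD14, 405 and 390 CPM at PWD21 and 118 CPM at PWD28. It was high at both wound days, and rose by 3.06 ± 0.22 on the log2 scale to PWD14 (FDR = 8.06e-06) and by 2.38 ± 0.21 to PWD21 (FDR = 6.82e-05). Klk11 had 22.0 CPM at PWD0, 54.9 and 65.8 CPM at PWD14, 115 and 104 CPM at PWD21 and 22.8 CPM at PWD28. Its PWD21 libraries were above all others, and the log2 fold change against PWD0 was 2.17 ± 0.25 at PWD14 and 2.50 ± 0.25 at PWD21 (FDR = 7.99e-05 and 0.000125).

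Klk5 had 461 CPM at PWD0, 540 and 776 CPM at PWD14, 827 and 909 CPM at PWD21 and 320 CPM at PWD28. Klk7 had 423 CPM at PWD0, 319 and 539 CPM at PWD14, 992 and 1136 CPM at PWD21 and 569 CPM at PWD28. Both genes were highest at PWD21 by CPM, with log2 fold changes from PWD0 to PWD21 of 1.10 ± 0.23 for Klk5 (FDR = 0.00649) and 1.51 ± 0.28 for Klk7 (FDR = 0.00344). Their rise to PWD14 rested on the scaling. It was 1.23 for Klk5 (FDR = 0.00157) and 0.73 for Klk7 (FDR = 0.0451) with TMM factors, and 0.51 (FDR = 0.0959) and 0.019 (FDR = 0.962) with library size alone. Without PWD14 replicate 2 the value for Klk7 was 0.33 (FDR = 0.241).

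Klk10 had 53.2 CPM at PWD0, 103 and 74.5 CPM at PWD14, 67.7 and 47.7 CPM at PWD21 and 97.3 CPM at PWD28, and its PWD21 libraries lay on either side of the PWD0 value. Its rise to PWD14 was 1.47 ± 0.31 on the log2 scale (FDR = 0.00290), and 0.74 with library size alone (FDR = 0.0549). Klk14 stayed at or below 2.68 CPM in all 6 libraries, 1.79 CPM at PWD0 and 0.103 CPM, a single count, at PWD28. Its fall from PWD14 to PWD28 (FDR = 0.0239) was lost with library size alone (FDR = 0.0618) and without PWD14 replicate 2 (FDR = 0.0596).

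Spink5 had 2093 CPM at PWD0, 3592 and 3406 CPM at PWD14, 1898 and 2102 CPM at PWD21 and 907 CPM at PWD28. It was highest in both PWD14 libraries, with a log2 fold change of 1.46 ± 0.21 from PWD0 (FDR = 0.000280), and lowest at PWD28 (-2.78 ± 0.23 from PWD14, FDR = 1.67e-05). The PWD21 level was close to that of PWD0 (log2 difference 0.12 ± 0.20, FDR = 0.691).

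**Figure D2:**
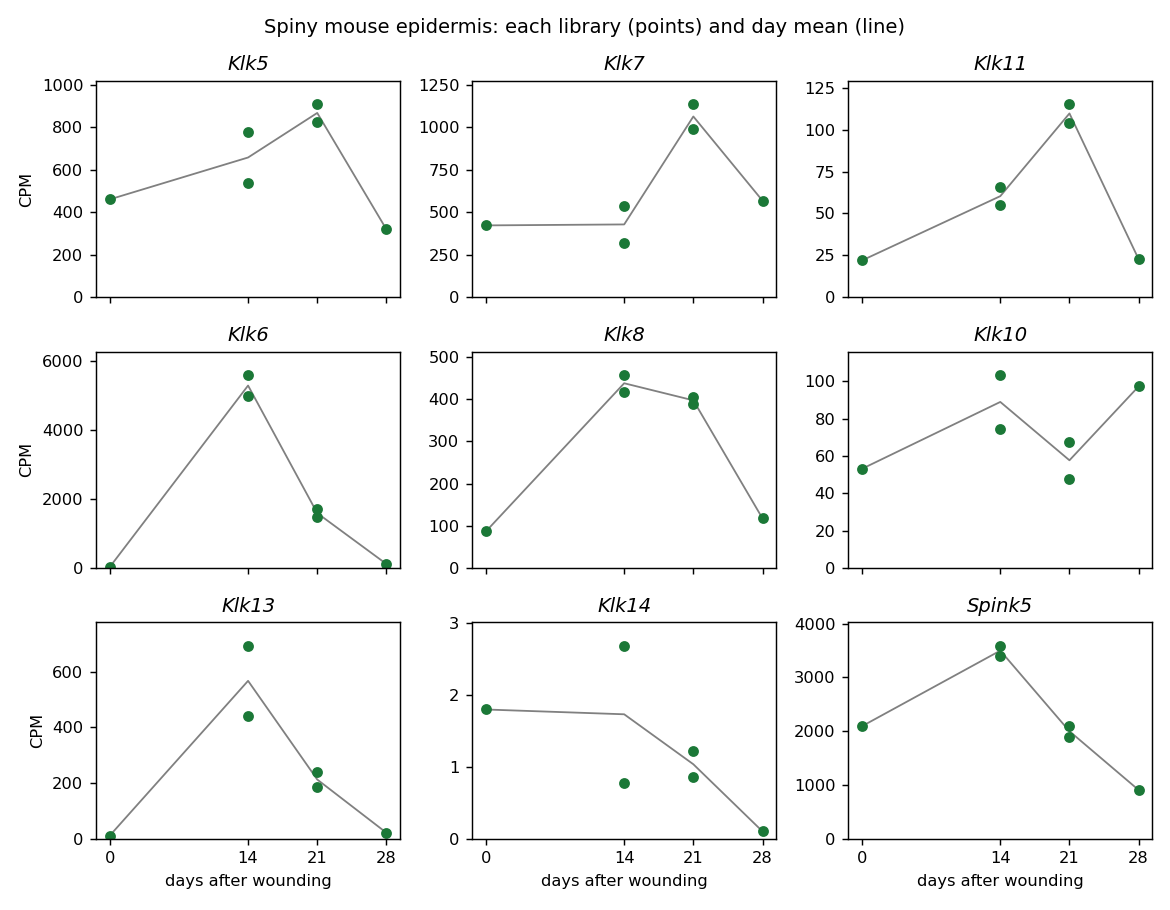
CPM of each member in the 6 spiny mouse epidermis libraries against days after wounding as labelled, points are libraries and the line joins day means, each panel with its own axis from 0. Klk6 goes from 30.1 CPM to 5605 and 4989 CPM and back to 119 CPM, whereas Klk7 and Klk11 are highest at day 21.

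The choice of scaling moved these values. Scaling by library size alone shifted the median gene by -0.72 on the log2 scale from PWD0 to PWD14, by -0.19 from PWD0 to PWD21 and by 0.83 from PWD14 to PWD28. By CPM, 4 members had their highest day mean at PWD14, 3 at PWD21, 1 at PWD28 and 1 at PWD0, and by TMM CPM 7 had it at PWD14 and 2, Klk7 and Klk11, at PWD21.

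The share of each kallikrein in the counts of all 8 does not depend on any scaling. Spiny mouse reads were aligned to the laboratory mouse genome, so shares too are compared within a species and not between the species. At PWD0 Klk5 and Klk7 held 42.3% and 38.9% of these counts and Klk6 2.77% (95% Wilson interval 2.48% to 3.08%). At PWD14 Klk6 held 72.5% and 67.9%, and Klk7 4.12% and 7.34%. At PWD21 the share of Klk6 was 39.3% and 34.8%, and at PWD28 it was 9.38% (8.88% to 9.91%), with Klk7 at 44.9%. Klk13 held 1.04% at PWD0, 8.97% and 6.01% at PWD14 and 1.71% at PWD28. In the laboratory mouse Klk7 held between 54.2% and 85.9% in every epidermis library, and Klk6 7.71% and 9.94% in the center and 1.53% and 3.93% at the margin.

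**Figure D3:**
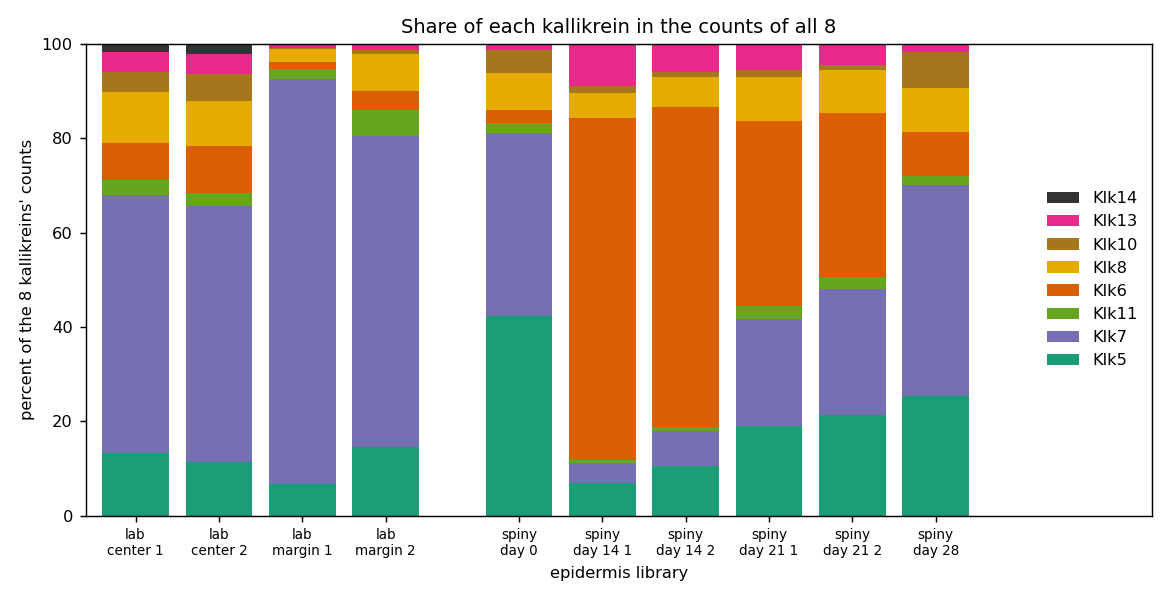
Percent of the counts of the 8 kallikreins that fell on each of them, in the 4 laboratory mouse and 6 spiny mouse epidermis libraries, each bar is 1 library and sums to 100. Klk6 takes 72.5% and 67.9% in the spiny mouse PWD14 libraries against 2.77% at PWD0, and Klk7 leads in all laboratory mouse libraries. Shares are not compared between the species.

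The step from PWD14 to PWD21, with 2 libraries on each side, was tested on its own. Here 46.6% of 12889 tested genes were called, 23.4% higher and 23.2% lower at PWD14. Of the 9 members 5 were higher at PWD14, namely Klk6 (log2 fold change 2.29 ± 0.18, FDR = 5.05e-05), Klk13 (1.97 ± 0.24, FDR = 0.000126), Spink5 (1.36 ± 0.16, FDR = 0.000126), Klk10 (1.17 ± 0.23, FDR = 0.00205) and Klk8 (0.69 ± 0.15, FDR = 0.00335). Klk7 was lower at PWD14 (-0.76 ± 0.21, FDR = 0.0115). Klk11 (-0.31, FDR = 0.151), Klk5 (0.15, FDR = 0.512) and Klk14 (1.27, FDR = 0.0940) did not pass.

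With library size alone the median gene shifted by -0.55, Klk8 lost its call (0.14, FDR = 0.447), Klk11 passed (-0.86, FDR = 0.00219) and Klk5 turned to -0.40 (FDR = 0.0906). Without PWD14 replicate 1 Klk7 had an FDR of 0.0576, and without PWD21 replicate 2 Klk8 had 0.0503. Klk6, Klk13, Klk10 and Spink5 were higher at PWD14 under both scalings.

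Other markers of these libraries moved with the days. The 4 wound keratins summed to 7453 CPM at PWD0, between 33573 and 54422 CPM at PWD14, between 9799 and 15972 CPM at PWD21 and 5504 CPM at PWD28. The 16 hair follicle and hair shaft markers summed to 29536 CPM at PWD28 and to at most 1392 CPM on the earlier days. The 10 immune markers, which include S100a9, summed to between 1843 and 2817 CPM at PWD14 and to at most 804 CPM on the other days. In these bulk libraries fewer cells of a type and less RNA per cell cannot be told apart, and the part of these cells in the members' values was not tested.

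Of 20 tested proteases outside the kallikrein family, 11 were higher and 4 lower at PWD14 than at PWD0, led by Prss27, a serine protease of stratified epithelia (384 against 22.1 CPM, log2 fold change 4.85, FDR = 1e-05), and the lysosomal Ctsd (1759 against 626 CPM, 2.21, FDR = 2.9e-05). Of 20 tested inhibitors other than Spink5, 11 were higher and 4 lower, led by the cysteine protease inhibitor Csta1 (3049 against 70.7 CPM, 6.15, FDR = 2.73e-06) and by Wfdc12 (56.0 against 0.378 CPM, 7.90, FDR = 4.72e-06). Of 20 tested genes of corneodesmosomes and the cornified layer, 6 were higher and 6 lower. Over all 14336 tested genes, 6992 were called between PWD0 and PWD14. Of these, 3255 were higher at PWD14 and the rest lower. Desmocollin 1, a kallikrein substrate encoded by Dsc1, fell from 847 to 102 CPM (-2.34, FDR = 7.39e-05). The neighbour Klk9 rose from 100 to 223 CPM (1.87, FDR = 0.000133).

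**Figure D4:**
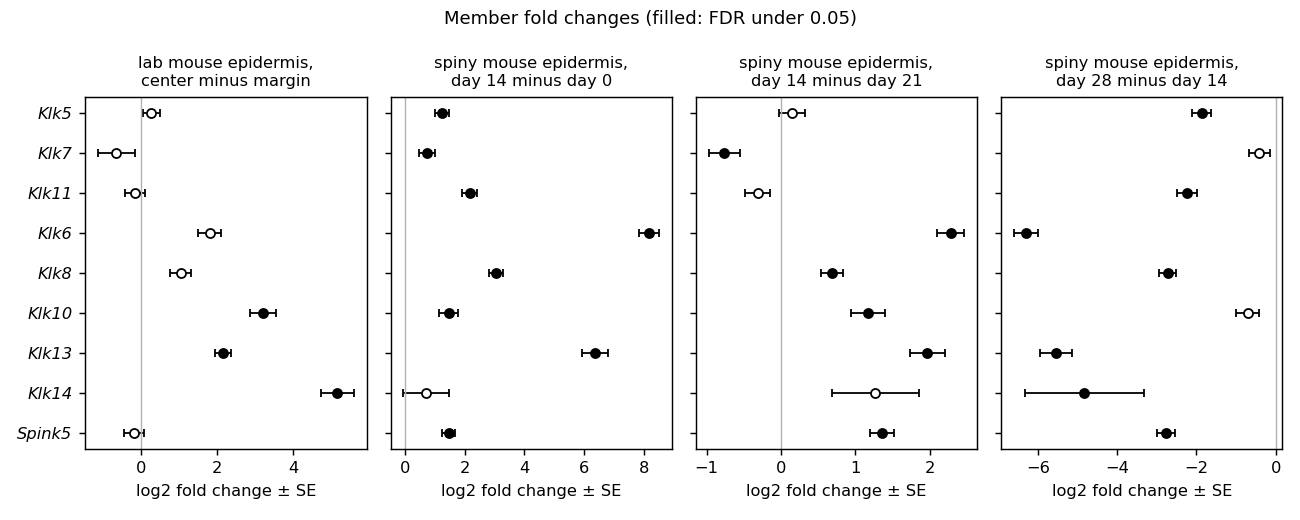
Log2 fold changes ± SE of the 9 members from edgeR's quasi-likelihood test in 4 epidermis comparisons, each panel with its own axis, filled points have an FDR under 0.05. Klk10 and Klk13 are filled to the right of 0 in the first 3 panels, and Klk6 has the largest values of the spiny mouse panels (8.18 and -6.31).

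Set side by side, Klk10 and Klk13 were higher in the wound center than at the margin of the laboratory mouse (3.21 and 2.15) and higher at PWD14 than at PWD21 in the spiny mouse (1.17 and 1.97). Klk6 had 1.81 in the first comparison, where it missed the threshold (FDR = 0.0616), and 2.29 in the second. Klk14 had 5.15 in the first and 1.27 (FDR = 0.0940) in the second, at a level of at most 2.68 CPM. Spink5 had -0.18 (FDR = 0.706) and 1.36, and Klk7 -0.64 (FDR = 0.450) and -0.76. Whether the species differ was not tested, and the tissue sampled, the library type and the match of the reads to the reference genome all differ with the species.

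Epidermis and dermis libraries were compared at 3 places, and all 9 members were higher in epidermis in each. The labels do not tie an epidermis library to a dermis library of the same wound. Laboratory mouse epidermis libraries were paired-end and dermis libraries single-end, so layer and read type cannot be told apart there. In the laboratory mouse, 9 of 9 were higher in epidermis than in dermis of the wound center, where 29.3% of tested genes were higher, and 9 of 9 at the wound margin, where 20.9% were. In the spiny mouse at PWD21 9 of 9 were higher, where 29.4% were. The median log2 fold changes of the members were 9.05, 5.56 and 6.42 in these 3 comparisons. Klk11 and Klk14 had no count in the 2 center dermis libraries of that comparison and were at least 1213-fold and 731-fold higher in epidermis, against 3 counts in the dermis library with the fewest reads. In wound margin dermis Klk14 had no count either, a difference of at least 23.4-fold.

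The smallest difference was that of Klk10. At the wound margin it had 30.5 ± 10.1 CPM in epidermis (SD, n = 2) and 12.7 CPM in each of the 2 dermis libraries (log2 fold change 2.09 ± 0.42, FDR = 0.00224), and at PWD21 57.7 CPM and 10.2 CPM (2.62 ± 0.29, FDR = 0.000191). With all laboratory mouse libraries in a single fit, 5 of 9 members were called at the margin, and Klk6, Klk7, Klk10 and Spink5 were not. At the wound center Klk10 did not pass with DESeq2 (adjusted p = 0.061), nor Klk7 with the edgeR 3 estimate (FDR = 0.0506).

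In laboratory mouse dermis, members were near 0 in most wound center libraries and detected at the margin. Of the 5 wild-type center libraries, replicates 1, 3, 4 and 5 had at most 1.41 CPM of any member, and replicate 2 had 44.8 CPM of Klk7, 12.2 CPM of Spink5, 12.0 CPM of Klk8, 11.4 CPM of Klk10 and 8.50 CPM of Klk6. The margin libraries had 123 and 189 CPM of Klk7, 79.6 and 185 CPM of Spink5, 21.3 and 26.4 CPM of Klk6, and 12.0 and 31.5 CPM of Klk5. In the comparison with center replicates 1 and 2, both center libraries lay below both margin libraries for all 8 tested members and for 30.1% of all tested genes. Center replicate 1 had at most 1 count of any member, so each member needed a margin library to pass the low-count filter. Klk11 and Klk13 had 0 and 2 counts in replicate 2 as well. The filter thus favoured this direction, and nothing about the members is drawn from this count.

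Comparing center replicates 1 and 2 with the margin, the 2 center libraries the study set against it, Spink5 was the 1 of 8 tested members that fell in the center (log2 fold change -4.41 ± 0.67, FDR = 0.0124), where 0.735% of 14698 tested genes were lower. Klk5 (-4.31, FDR = 0.0855), Klk7 (-2.78, FDR = 0.133), Klk6 (-2.48, FDR = 0.194), Klk8 (-1.77, FDR = 0.352) and Klk10 (-1.15, FDR = 0.599) did not pass. Klk11 had no count in these center libraries and was at least 36.4-fold higher at the margin (FDR = 0.180), and Klk14 was at 0 in all 4 libraries. The call for Spink5 was lost with DESeq2 (FDR = 0.398, with Klk11 called in its place), with the edgeR 3 estimate (FDR = 0.259), with all laboratory mouse libraries in 1 fit (FDR = 0.103) and without margin replicate 2 (FDR = 0.0622). Without center replicate 2, 6 members were called.

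Hair and keratinocyte genes were also higher at the margin. The 16 hair follicle and hair shaft markers summed to 962 and 1003 CPM at the margin, with none at 0, and to at most 10.6 CPM in the center libraries, where between 12 and 16 of them were at 0. As a share of the epidermis mean of the same region, Klk10 reached 41.5% and 41.6% and Klk6 14.9% and 18.4% in the margin dermis, against 3.32% and 6.55% for Krt5 and 7.62% and 9.92% for Krt14, keratins of basal keratinocytes. The other kallikreins and Spink5 lay between 0 and 10.3%. In center replicate 2, Klk10 was at 3.79% and Krt5 at 0.354% of the epidermis mean, and in center replicate 1 Krt14 was at 2.22% while 7 of the 9 members had no count and Klk7 and Spink5 had 1 count each. The part of these cells in the dermis values was not tested.

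**Figure D5:**
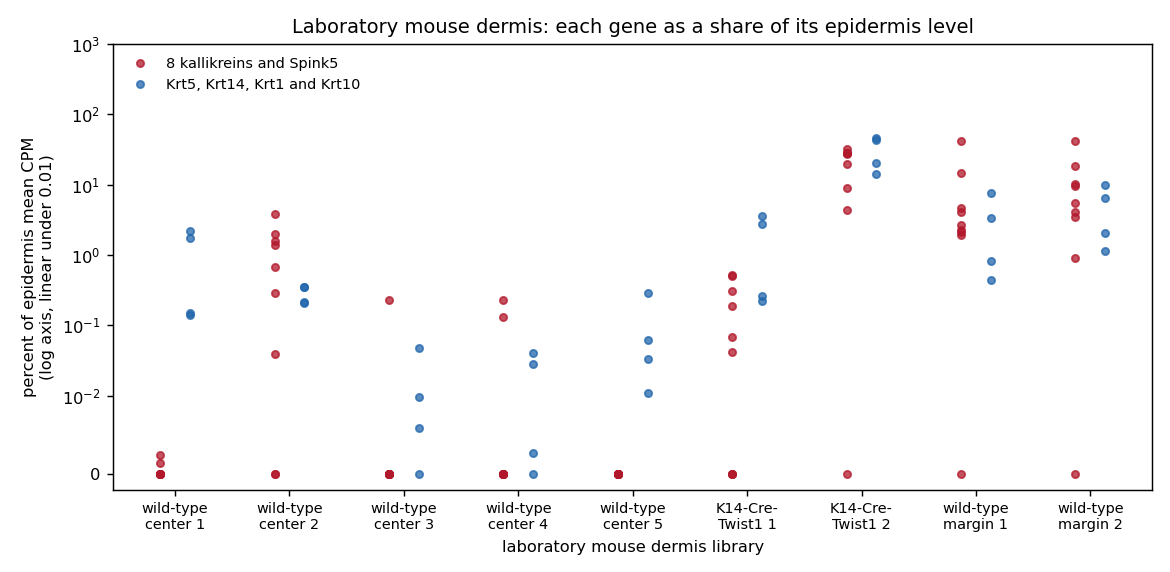
Level of each member (red) and of Krt5, Krt14, Krt1 and Krt10 (blue) in the 9 laboratory mouse dermis libraries, as a percent of the gene's mean CPM in wild-type epidermis of the same region (log axis, linear under 0.01), points are genes. The K14-Cre-Twist1 libraries are also set against wild-type epidermis. K14-Cre-Twist1 replicate 2 has all members but Klk14 between 4.39% and 32.4%, beside keratins at 14.2% to 46.3%.

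K14-Cre-Twist1 wound center dermis was compared with the 3 wild-type libraries of that experiment. Twist1 itself had 73.4 and 44.0 CPM in the K14-Cre-Twist1 dermis and 57.7, 36.3 and 105 CPM in the wild type, which does not check the label, since Cre acts in keratinocytes. Klk7 had 2.26 and 913 CPM in the 2 K14-Cre-Twist1 libraries and 0 counts in all 3 wild-type libraries, and Spink5 0.753 and 510 CPM against 0 counts. Klk5 had 1.41 and 199 CPM and Klk8 3.01 and 170 CPM, with at most 1.41 CPM of Klk8 in the wild type. Nearly all of the signal came from replicate 2, where Klk7 was at least 6038-fold and Spink5 at least 3375-fold higher than 3 counts in the wild-type library with the fewest reads.

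None of the 6 tested members passed the test (edgeR's quasi-likelihood test, FDR between 0.170 and 0.369), and 0.0565% of 14163 tested genes were called. All 6 were higher with an unadjusted p under 0.05, as were 6.98% of tested genes. Klk5, Klk7, Klk11 and Spink5 had no count in the wild-type libraries of this comparison. They entered the test only through the K14-Cre-Twist1 libraries, so their direction was fixed in advance and nothing is drawn from it. DESeq2 called 4 members. Without K14-Cre-Twist1 replicate 1 the count was 8, and without replicate 2 it was 0. As no K14-Cre-Twist1 epidermis library was present, levels were set against the mean of wild-type wound center epidermis. In replicate 2 the members other than Klk14 stood at between 4.39% (Klk10) and 32.4% (Klk11) of that mean. Krt1, Krt10, Krt14 and Krt5 stood at 14.2%, 20.1%, 42.9% and 46.3%. The 14 granular and spinous layer markers summed to 415 and 35214 CPM in the 2 K14-Cre-Twist1 libraries, and their part in the result was not tested.

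Whether the center and margin differ alike in both layers was tested as an interaction term. It compares signed log2 differences and not their size. For Klk5, Klk6 and Klk11 the difference was larger in size in dermis, where they were lower in the center. The signed center minus margin difference was higher in epidermis than in dermis for 5 of 9 members with an FDR under 0.05, where 3.34% of 15531 tested genes were. These were Klk5 (4.72 ± 0.90, FDR = 0.0150), Klk6 (4.41 ± 0.96, FDR = 0.0302), Klk10 (4.47 ± 1.06, FDR = 0.0449), Klk13 (6.09 ± 1.17, FDR = 0.0168) and Klk11, whose estimate rests on center dermis libraries without a count (FDR = 0.00619). Spink5 had 4.36 ± 1.08 (FDR = 0.0537), and Klk14, at 0 in all dermis libraries, gave no usable estimate. Klk8 had 2.93 ± 1.07 (FDR = 0.198) and Klk7 2.27 ± 1.39 (FDR = 0.481). The count was 2 with DESeq2 and with the edgeR 3 estimate, Klk11 and Klk13 in both, and between 1 and 6 when any 1 of the 8 libraries was left out, with 1 without margin dermis replicate 2.

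In spiny mouse dermis, Spink5 and Klk14 had their highest levels in intact skin (PWD0), where Klk14 was above its epidermis level in both libraries and Spink5 in 1 of them. Spink5 had 2415 and 1310 CPM, against 2093 CPM in PWD0 epidermis, and 32.0 CPM at PWD14, 23.5 and 36.9 CPM at PWD21 and 156 CPM at PWD28. It was thus at 115% and 62.6% of the epidermis level at PWD0 and at or below 17.2% on all later days. Klk5 had 21.2 and 29.1 CPM in the same PWD0 dermis, 4.59% and 6.31% of the epidermis level, and Klk7 75.1 and 76.3 CPM, 17.8% and 18.02%. The ratio of Spink5 counts to the summed counts of the 8 kallikreins was 13.0 and 6.66 in PWD0 dermis, 1.92 in PWD0 epidermis and at most 0.716 in every later spiny mouse library of either layer.

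Klk14 had 11.1 and 22.9 CPM in PWD0 dermis against 1.79 CPM in the epidermis library of that day, and lower levels than these in dermis on all later days. Klk10 had 40.9 and 36.7 CPM in PWD0 dermis, 77.0% and 69.1% of the epidermis level, and 42.2 CPM in PWD28 dermis, and between 2.30 and 11.5 CPM on the days between. Klk6 had its highest dermis value, 95.7 CPM, at PWD14, when it was at 1.81% of the epidermis level, and at most 22.4 CPM in the other 5 libraries.

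From PWD0 to PWD21, 7 of 9 members fell in dermis, where 14.2% of 14481 tested genes were lower. The largest changes were those of Klk14 (-7.89 ± 0.86, FDR = 0.000607) and Spink5 (-6.09 ± 0.58, FDR = 0.000413). Klk11 (-2.98), Klk8 (-2.54), Klk5 (-2.37), Klk10 (-2.04) and Klk7 (-1.75) followed with an FDR between 0.00402 and 0.0206. Klk13 (-1.18, FDR = 0.104) and Klk6 (0.47, FDR = 0.443) did not pass. Without PWD21 replicate 1, 4 members were called, with Klk7 (FDR = 0.0517), Klk8 (FDR = 0.0560) and Klk11 (FDR = 0.193) lost, and without the PWD0 library rich in hair genes 7 were.

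The PWD0 dermis libraries held other epithelial transcripts. The 4 wound keratins, which the hair follicle sheath also makes, summed to 16083 and 9549 CPM, against 7453 CPM in PWD0 epidermis and 513 and 523 CPM in PWD21 dermis. The 8 basal keratinocyte markers summed to 9913 and 5872 CPM and the 9 sebaceous gland markers to 2721 and 3976 CPM, whereas the 14 granular and spinous markers summed to 1360 and 1432 CPM, against 34708 CPM in PWD0 epidermis. Krt1, Krt10, Lor and Dsg1a stood at between 1.45% and 5.13% of their epidermis levels. Krt5, Krt14 and Cdsn, the gene of corneodesmosin, stood at between 21.7% and 45.2%. Of 17 tested inhibitors other than Spink5, 11 fell to PWD21, among them Serpina12 (582 to 19.5 CPM, -4.99, FDR = 0.000314) and Serpinb5 (1232 to 42.5 CPM, -5.00, FDR = 0.000392). The part of follicle and gland cells in the members' values was not tested.

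Across all 25 libraries, the 5 genes whose log2(CPM + 1) was most like the mean of the 8 kallikreins were Lypd3 (Pearson r = 0.978), Sbsn (0.971), Pla2g4e (0.962), Pdzk1ip1 (0.962) and Alox12b (0.962), out of 14461 genes whose mean reached 1 CPM. For Spink5 they were Serpinb5 (0.975), Cst6 (0.971), Trim29 (0.967), S100a14 (0.967) and Sbsn (0.961). These r values describe the libraries, which share layer, species and depth, and most of their range is the gap between epidermis and dermis. Over the 6 spiny mouse epidermis libraries alone, the highest r was 0.997 for Tmem117 with the kallikrein mean, and 0.979 for Nav3 and for Pmvk with Spink5, among 12502 genes and over only 6 points.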

How the data were processed

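Bulk RNA-seq was analysed in 25 libraries. The authors deposited raw counts per gene, made per the labels and methods with STAR (version 2.4.1d in the submitters' processing notes) on the laboratory mouse build mm10 and with HTSeq 0.6.0 as the counter. Laboratory mouse libraries were stranded, with epidermis paired-end and dermis single-end, and spiny mouse libraries were non-stranded and single-end. The 5 HTSeq summary lines, among them low-quality alignments (23.35 to 34.37% in laboratory and 38.01 to 60.46% in spiny mouse libraries), were left out of totals. CPM was computed over all 24500 gene rows. Counts were tested with edgeR 4.0.16 (R 4.3.3), using TMM factors, filterByExpr and the quasi-likelihood test with the edgeR 4 estimate, two-sided, with Benjamini-Hochberg FDR over all tested genes and a threshold of 0.05. The fit was checked on counts simulated from its own model, which cannot show whether its error estimate suits groups this small. Alternatives were DESeq2 1.42.0, other scalings, no filter, wider sets of libraries, each library left out, and the edgeR 3 estimate. All 9 members were looked up in each comparison, though not all are named for each. Of every other gene list at most 4 genes with the lowest FDR are named. Members and lists were chosen with earlier results of these data known. How the 5 wild-type center dermis libraries were divided between 2 comparisons follows library names printed in the study. Log2 fold changes are given ± SE. Promoters came from RefSeq windows, and exon lengths from GENCODE models of GRCm38. Genes of the lists not found by symbol were A2ml1, Flg and Krt85.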

Additional observations from a re-analysis of the deposited data

Results flagged for a closer look

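In wild-type wound center dermis, the only group with more than 3 libraries, replicate 2 lay farther from the other 4 than Dixon's limit for 7 of the 7 members tested. Its levels were 2.16 CPM of Klk5, 8.50 CPM of Klk6, 44.8 CPM of Klk7, 12.0 CPM of Klk8, 11.4 CPM of Klk10, 0.103 CPM of Klk13 and 12.2 CPM of Spink5. The other 4 libraries had no count of Klk5, Klk6 or Klk13 and at most 1 count of Klk7 or Spink5, so any higher value passes the limit for these genes, and the rate of about 1 in 20 groups by chance does not apply to them. The value for Klk13 is 2 counts, fewer than the 3 taken as detectable. For Klk8 and Klk10 the other libraries reached 1.41 and 0.403 CPM. These 7 values come from 1 library and are not separate observations. Klk11 and Klk14 had no count in any of the 5 libraries.

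The signed center minus margin difference of the laboratory mouse was higher in epidermis than in dermis for 5 members by the interaction term of edgeR's quasi-likelihood test. The log2 estimates were 4.72 for Klk5, 4.41 for Klk6, 4.47 for Klk10, 6.09 for Klk13 and 10.25 for Klk11, the last depending on the prior count because the center dermis libraries were at 0. The dermis side of each rests on center replicates 1 and 2, which differed in these genes as given above.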

How the results depend on the processing

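Of the members' values under all alternatives, 989 kept their direction and side of the threshold, 46 newly passed it, 59 lost it and 10 turned. The number of members called in laboratory mouse epidermis (3) became 5 with DESeq2, 0 with the edgeR 3 estimate, 1 with all libraries of the species and 2 to 8 leaving out a library. In wound center against margin dermis (1) it was 0 with the edgeR 3 estimate, 2 with all 5 wild-type center libraries and 0 to 6 leaving out a library. In K14-Cre-Twist1 dermis (0) it was 4 with DESeq2, 3 with all 5 wild-type libraries, 5 with all libraries of the species and 0 to 8 leaving out a library. In spiny mouse dermis (7) it was 4 to 7 leaving out a library, for layers at the wound margin (9) 5 with all libraries of the species, and from PWD0 to PWD14 (8) 5 with library size alone. For the interaction (5) it was 2 with DESeq2, 2 with the edgeR 3 estimate, 3 with all 5 wild-type libraries and 1 to 6 leaving out a library. By TMM CPM, 0, 7 and 0 members were highest at PWD0, 14 and 28, against 1, 4 and 1 by CPM. Values that turned were Klk7 (-1.13 to 0.144 leaving out a library) and Klk11 (-0.41 to 0.211) in laboratory mouse epidermis. Between PWD14 and PWD21 Klk5 turned (-0.40 with library size alone, -0.0955 to 0.35 leaving out a library), and in spiny mouse dermis Klk6 (-0.0194 to 0.91). Against PWD0, Klk14 turned at PWD14 (-0.472 to 1.24), and at PWD21 Spink5 (-0.0660 with library size alone) and Klk10 (-0.00342 to 0.55). From PWD14 to PWD28, Klk7 (0.407) and Klk10 (0.131) turned with library size alone. None of the 10 turned values passed the threshold, and the cause was not tested.

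Over all genes, the 176 calls in laboratory mouse epidermis ranged from 0 to 1511 by setting and 70 to 7405 leaving out a library, the 125 in dermis from 54 to 738 and 19 to 241, the 8 in K14-Cre-Twist1 dermis from 2 to 787 and 1 to 3353, and the 540 of the interaction from 476 to 1125 and 167 to 1343. Leaving out a library gave as few as 3470 of 6002 between PWD14 and PWD21, 1311 of 3792 in spiny mouse dermis, 2190 of 4110 from PWD0 to PWD21, and 4899 of 8038 and 4508 of 7141 between layers at the center and margin. No paired analysis was possible because the labels give no replicate numbers shared between groups. Days with 1 library and at most 2 libraries in most groups limit every test here.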
